A study of Mus musculus with 2 samples.

Results

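Apoe, Clu, Apod, Abca1, Abcg1, Lrp1 and Lcat encode lipid carriers of the brain and the proteins that load, mature and take up their particles. These 7 genes were chosen by symbol, from 55536 gene rows in the gene tables of 2 mouse cortex libraries. Both libraries were made from poly(A)+ RNA of left cerebral cortex of the adult B6NCrl mouse (C57BL/6) at 6 months of age. The starting amount was 20 ng of RNA, the fragmentation step was Nextera tagmentation, and the labels named no treatment or altered allele. The 2 libraries formed 1 group, replicates 1 and 2, so no condition was compared with another. The labels gave both replicates the same donor entry but separate biosample records and biological replicate numbers. They do not settle whether the replicates came from separate animals. Every spread below is only the difference between these libraries.

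Neurons and glia of the adult brain receive little cholesterol from the blood and depend on particles that resemble high density lipoprotein, released mainly by astrocytes. Abca1 passes cholesterol and phospholipid out of cells onto apolipoproteins, and Abcg1 passes sterol to particles that already carry lipid. Lcat esterifies the cholesterol of the particle, and receptors of the low density lipoprotein receptor family, Lrp1 among them, take the particle up. Several of these genes are targets of the liver X receptors, which sense oxidised cholesterol.

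Depth on genes was 51888490 fragments for replicate 1 and 26776276 for replicate 2. Levels are given in TPM (transcript abundance scaled per length and per library), and a gene with at least 1 TPM in both libraries is called detected; 13800 genes were. All 7 members were detected. The tissue label was set against marker lists: neuronal Snap25 stood at 2359 and 2730 TPM and astrocytic Aldoc at 1129 and 1397 TPM in replicates 1 and 2, whereas 3 of 8 choroid plexus genes were detected, with Ttr first at 54.3 and 39.9 TPM. In bulk tissue, fewer cells of a type and less RNA per cell cannot be told apart.

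Apoe led the members, with Clu and Apod next, all 3 of them secreted carriers. Abcg1, Lrp1 and Lcat followed at means between 20.1 and 45.5 TPM, and Abca1 stood lowest, near the 1 TPM set here for detection. Apoe alone made up 91.1% and 89.6% of the summed member TPM in replicates 1 and 2. The members together took 0.575% and 0.525% of the fragments on genes.

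**Figure D1:**
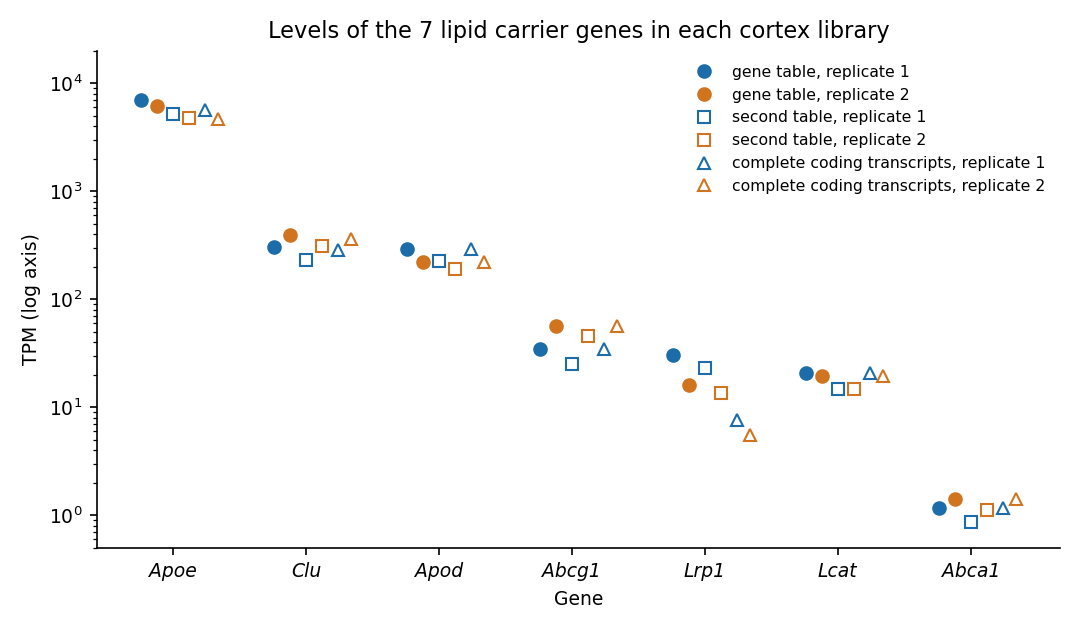
Levels of the 7 members on a log axis of TPM. Filled circles are the gene tables, squares the second transcript tables and triangles the summed transcripts with the complete coding sequence, in blue for replicate 1 and orange for replicate 2; Apoe lies at 6119 TPM or more in both gene tables, Abca1 at 1.42 TPM or less, and when complete coding transcripts alone are summed, Lrp1 falls below Lcat in both libraries and Clu below Apod in replicate 1.

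Apoe is the main apolipoprotein of the brain and a ligand of the low density lipoprotein receptor family (ENSMUSG00000002985.16, mm10, chromosome 7, 19696109 to 19699188, minus strand). It stood at 7038 TPM in replicate 1 and 6119 TPM in replicate 2, a mean of 6578 ± 649.6 (SD, n = 2). That mean ranked 4 among 12436 detected protein coding nuclear genes. Its lowest value lay far above the highest value of Clu, and the mean was 18.8 times that of Clu.

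The transcript tables gave the level of Apoe mainly to Apoe-209, which encodes the complete protein, and in part to the shorter Apoe-202. Apoe-202 is annotated as a processed transcript without a coding sequence. It lacks 386 bases of exon 4 (mm10, chromosome 7, 19696338 to 19696723). Of these, 341 lie before the stop codon, and the other 45 hold the stop codon and sequence after it. The join is shown first because few other bases set Apoe-202 apart: the capitals in the Apoe-202 line mark the start of exon 5, and those in the Apoe-209 lines mark the first and the last bases of the stretch that Apoe-202 lacks. Sequences here and below were read 5′ to 3′ from the GENCODE M21 transcripts on the mm10 assembly.
Apoe-202 across its last join: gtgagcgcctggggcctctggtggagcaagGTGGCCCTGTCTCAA
Apoe-209, into the lacked stretch (chr7:19696704-19696753): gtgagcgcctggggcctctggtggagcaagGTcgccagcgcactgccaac
Apoe-209, out of the lacked stretch (chr7:19696323-19696352): tccatatccagccAGgtggccctgtctcaa

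The lacked stretch starts with GT and ends with AG, the letters at the ends of most introns. A repeat of 4 bases at its ends lets it be placed in more than 1 way. Apoe-202 and Apoe-209 also start at different first exons. Apoe-209 shares its second exon with Apoe-206, whose longer first exon and longer last exon surround the same coding sequence, so the end of the first exon (in capitals) tells them apart.
Apoe-209: CACCCAGGGACCTTGactggccaatcacaa
Apoe-206: TTTCGGAAGGAGCTGactggccaatcacaa

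Apoe-209 held 70.2% of Apoe TPM in replicate 1 and 68.0% in replicate 2 by the deposited isoform percent. Apoe-202 held 19.4% and 23.1%, and Apoe-206 held 9.46% and 7.59%. The order was the same in both libraries, and each share moved by less than 4 points between them.

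Apoe-202 stood at 1366 and 1411 TPM, which by itself is above the level of every other member. The authors' interval for its TPM ran from 1292 to 1362 in replicate 1 and from 1300 to 1386 in replicate 2. Both lay below the deposited value, as did the intervals of Apoe-209, Clu-201 and Abcg1-201 in both libraries. The second transcript tables put the share of Apoe-202 higher, at 33.0% and 31.5%. That share rests on little sequence of its own. Of the 698 stretches of 31 bases (words) in Apoe-202, 26 occurred in no other Apoe transcript. The same held for 35 of the 1074 words of Apoe-209, so its share rests on little sequence of its own as well. Transcripts holding the complete coding sequence of 311 codons summed to 5652 and 4681 TPM, or 80.3% and 76.5% of the gene, and to 66.9% and 68.3% in the second tables.

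**Figure D2:**
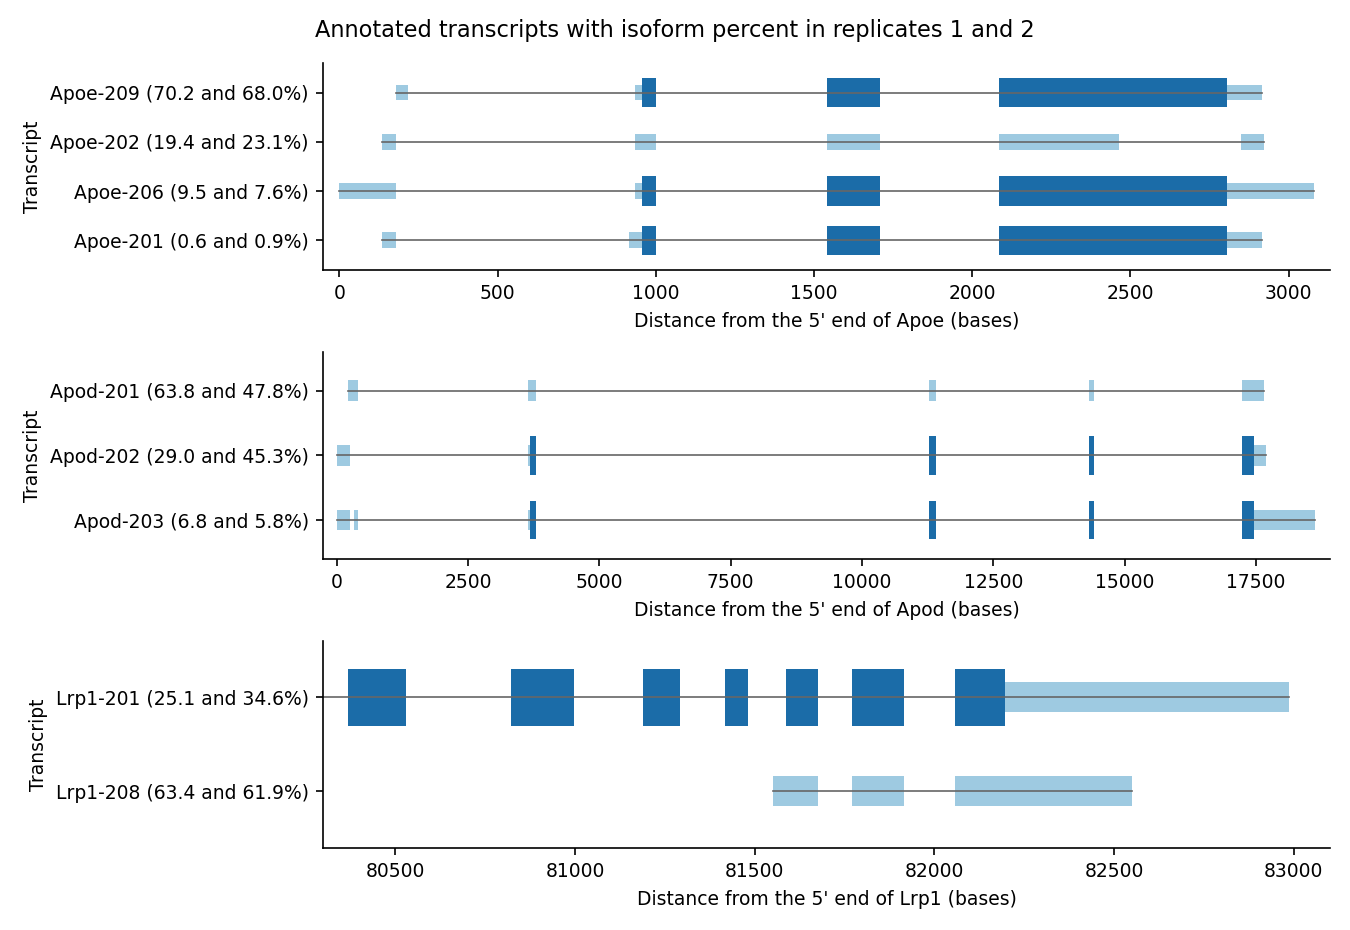
Annotated transcripts of Apoe, Apod and the 3′ end of Lrp1, drawn to scale as distance in bases from the 5′ end of the gene, with isoform percent in replicates 1 and 2 beside each name. Wide dark boxes are sequence annotated as coding, narrow light boxes are other exon sequence; Apoe-202 lacks 386 bases of the last exon of Apoe-209, the Apod transcripts differ before the coding exons and in the length of the last exon, and Lrp1-208 lies at the 3′ end of Lrp1-201, from the intron before exon 87 into exon 89.

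Clu encodes clusterin (apolipoprotein J), a secreted chaperone found on lipoprotein particles (ENSMUSG00000022037.15, chromosome 14, 65968483 to 65981547, plus strand). It stood at 308 TPM in replicate 1 and 391 TPM in replicate 2, a mean of 349 ± 58.6 (SD, n = 2), at rank 388. In the gene tables its range did not overlap that of Apod, although the lower Clu value, 308 TPM, and the higher Apod value, 293 TPM, lay close. Of 9 annotated transcripts, Clu-201 held 92.5% and 93.3% of the TPM, and 86.2% and 89.4% in the second tables. Clu-201 was the only one of them with the complete coding sequence of 448 codons.

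Apod encodes a small lipocalin that binds lipids such as arachidonic acid (ENSMUSG00000022548.14, chromosome 16, 31296192 to 31314808, minus strand). It stood at 293 TPM in replicate 1 and 223 TPM in replicate 2, a mean of 258 ± 48.9 (SD, n = 2), at rank 536. In the gene tables Clu was the higher and Apod the lower of the pair in both libraries, by 1.35-fold in the means. Summed over complete coding transcripts alone, Apod was the higher in replicate 1 (291 TPM against 285 TPM for Clu) and Clu in replicate 2 (365 TPM against 221 TPM for Apod), so that the order of the pair did not hold and the ranges overlapped.

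Apod-201 and Apod-202 shared most of the Apod level. Apod-201 is annotated as a retained intron transcript, yet it contains the complete coding sequence of 189 codons. It differs from Apod-202 in the exon before the start codon and in the length of the last exon. The capitals mark the end of the exon that precedes the one with the start codon, and Apod-203 carries the same letters as Apod-201 there.
Apod-201: CCTCAGACTTCTAAGgcctctcctgcagcc
Apod-202: CATCTGATCTGAGAGgcctctcctgcagcc

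Apod-201 held 63.8% of Apod TPM in replicate 1 and 47.8% in replicate 2. Apod-202 held 29.0% and 45.3%. The shares moved in opposite directions, by -16.0 and 16.3 points. In TPM, Apod-201 stood at 187 and 107 and Apod-202 at 84.8 and 101. The authors' intervals of both transcripts lay apart in replicate 1 (173 to 189 TPM for Apod-201, 75.4 to 88.6 TPM for Apod-202) and overlapped in replicate 2 (92.6 to 111 TPM and 88.3 to 105 TPM). The second tables gave Apod-201 51.8% and 42.9% and Apod-202 40.0% and 49.7%, so the leading transcript was not the same in both libraries there. Apod-202 had 27 words of its own among 1040. Either way the coding sequence was almost always complete, at 99.6% and 98.8% of Apod TPM.

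Abca1, the transporter that loads lipid onto apolipoproteins with little lipid, was the lowest member (ENSMUSG00000015243.4, chromosome 4, 53030787 to 53159895, minus strand). It stood at 1.16 TPM in replicate 1 and 1.42 TPM in replicate 2, a mean of 1.29 ± 0.184 (SD, n = 2), at rank 12292 of 12436. These levels rest on 470 and 293 fragments over a transcript of 10262 bases. In the second tables the summed level was 0.868 and 1.12 TPM, on either side of the 1 TPM set here for detection. All fragments were given to Abca1-201, which encodes 2261 codons.

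Abcg1, which passes sterol to particles that already carry lipid, stood above Abca1 in both libraries (ENSMUSG00000024030.7, chromosome 17, 31057675 to 31117988, plus strand). Its level was 34.5 TPM in replicate 1 and 56.5 TPM in replicate 2, a mean of 45.5 ± 15.5 (SD, n = 2), at rank 2850. Abcg1-201 held 99.6% and 100% of it. Abcg1 was lower than Apod by 5.67-fold in the means, and the ranges lay apart.

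Lcat, the enzyme that esterifies cholesterol on the particle, was the steadiest member in TPM (ENSMUSG00000035237.7, chromosome 8, 105939551 to 105943382, minus strand). It stood at 20.8 TPM in replicate 1 and 19.4 TPM in replicate 2, a mean of 20.1 ± 0.983 (SD, n = 2), at rank 5062. The annotation gives it 1 transcript, Lcat-201, of 1342 bases and 438 codons. Its mean was 15.6 times that of Abca1.

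Lrp1 is a very large endocytic receptor that takes up Apoe particles among many other ligands (ENSMUSG00000040249.15, chromosome 10, 127538161 to 127621148, minus strand). It stood at 30.5 TPM in replicate 1 and 16.1 TPM in replicate 2, a mean of 23.3 ± 10.2 (SD, n = 2), at rank 4619. The range enclosed that of Lcat: Lrp1 was above Lcat in replicate 1 and below it in replicate 2. Lrp1 and Lcat were the only neighbours in the order of the 7 levels whose ranges overlapped.

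The deposited Lrp1 level came mostly from a short transcript. Lrp1-208, annotated as a retained intron transcript of 763 bases, holds exons 87 and 88 of the 89 exons of Lrp1-201 and the first 492 of the 930 bases of exon 89, and starts 35 bases inside the intron before exon 87. The stretch where that intron ends is printed because it holds what Lrp1-208 has beyond Lrp1-201 (chr10:127539533-127539597), with the 35 intron bases in capitals.
Lrp1-208: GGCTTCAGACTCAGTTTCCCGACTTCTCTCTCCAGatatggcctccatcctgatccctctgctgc

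Lrp1-208 held 63.4% of Lrp1 TPM in replicate 1 and 61.9% in replicate 2. Lrp1-201, which encodes the receptor of 4545 codons, held 25.1% and 34.6%. By fragments the order was the other way round, since TPM divides by length: Lrp1-201 took 83.4% and 90.9% of the Lrp1 fragments and Lrp1-208 took 8.58% and 7.05%.

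Of the 733 words of Lrp1-208, 698 also occur in Lrp1-201, the other 35 occur in Lrp1-209, and so 0 were its own. Its TPM stood at 19.4 and 9.94, with authors' intervals of 17.0 to 20.7 and 7.71 to 11.5. Summed over transcripts with the complete coding sequence, which here is Lrp1-201 alone, Lrp1 stood at 7.66 and 5.55 TPM, a mean of 6.61 ± 1.49 (SD, n = 2), below Lcat in both libraries. The second tables put Lrp1-208 at 57.1% and 61.7% of TPM, so both quantifications placed it first. Lrp1-204, a transcript annotated as retained intron at the 5′ end of the gene, held 10.8% and 3.46%.

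**Figure D3:**
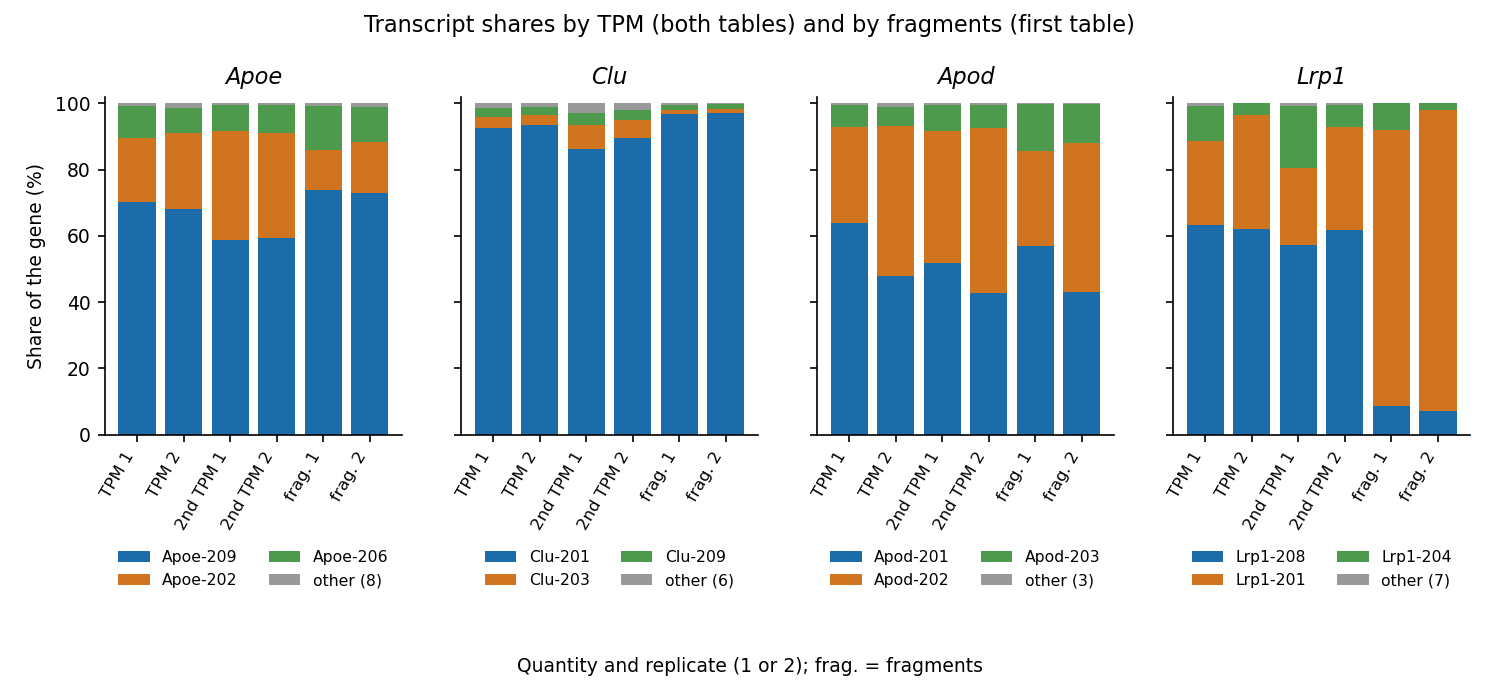
Share of each gene held by its 3 leading transcripts and by all others, in percent, for Apoe, Clu, Apod and Lrp1. Bars give TPM of the first transcript tables, TPM of the second tables and fragments of the first tables, each for replicates 1 and 2; Lrp1-208 takes 63.4% and 61.9% of TPM but 8.58% and 7.05% of fragments.

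These features were set against 6782 protein coding genes with 2 or more transcripts and a mean TPM of at least 10, of which 5 were members (Abca1 was too low and Lcat has 1 transcript). The leading transcript was not annotated as protein coding in 2 of the 5, Apod and Lrp1, against 10.3% of all such genes. In both cases it was annotated as a retained intron, against 3.39% of all. A transcript without a coding annotation held at least 10% of TPM in both libraries in 3 of the 5, with Apoe the other member, against 26.2% of all. The leading transcript held under 10% of the fragments in 1 of the 5, Lrp1, against 2.7% of all. Its share moved by at least 10 points between the libraries in 1 of the 5, Apod, against 27% of all, and it changed identity in 0 of the 5 in the first tables, against 13.6%.

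Reads could be assigned to the members with little ambiguity between genes. All words of Apoe, Clu, Abca1 and Lcat occurred in no other annotated gene, as did 98.3% of those of Apod, 98.5% of Abcg1 and nearly all, 17805 of 17807, of Lrp1. No member shared an exon base with another annotated gene.

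How far the members differed between the libraries was measured on CPM, the expected fragment counts divided by library size, here the TMM effective size. For every gene with a mean CPM of 1 or more (14656 genes) the counts were set against each other by an exact binomial test, two-sided, with Benjamini-Hochberg adjustment. With 1 library on each side, the test speaks of these libraries only and has no replicate check. A gene is called when its adjusted p is under 0.05 and its ratio at least 1.5-fold. Intervals are 95% Clopper-Pearson intervals and cover counting error only.

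At these depths 6 of the 7 members differed beyond counting error, as did 62.3% of all tested genes. The exception was Abca1 (adjusted p = 0.256, exact binomial test). Called at 1.5-fold was 1 of the 7, Lrp1, against 20.5% of all tested genes. It was lower in replicate 2, as were 17.2% of tested genes, and 0 members were called higher, against 3.22%. The 3000 called genes split into 472 higher and 2528 lower in replicate 2, and into 830 higher and 2065 lower when libraries were scaled by total counts. The median log2 ratio of replicate 2 over replicate 1 was -0.20 over the members and -0.034 over all tested genes, and total-count scaling moved the latter to 0.086.

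Lrp1 had 5435 fragments in replicate 1 and 1840 in replicate 2. Its log2 ratio was -0.73, with an interval of -0.81 to -0.66, and 15.2% of tested genes had a larger ratio in either direction. Counted over complete coding transcripts alone the ratio was -0.61 and still called. The deposited mean transcript length of the gene was 4595 bases in replicate 1 and 5744 in replicate 2, and TPM, which divides by it, differed more than CPM.

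Abcg1 moved the other way and lay just inside the limit of 1.5-fold, at 1.49-fold. It had 7835 and 6574 fragments, a log2 ratio of 0.57 (interval 0.53 to 0.62). It passed 1.5-fold with total-count scaling, at 0.70, and in the second tables, at 0.61. The exporters Abca1 and Abcg1 both had ratios above 0, but Abca1, at 0.14, had an interval of -0.071 to 0.36 that includes 0.

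Among the secreted carriers the direction was not shared. Apoe had 253184 and 114192 fragments and a log2 ratio of -0.32 (interval -0.33 to -0.31), which did not hold its sign in the GC-adjusted comparison that follows. Apod had 10745 and 4341 fragments and a log2 ratio of -0.48 (interval -0.53 to -0.43). Clu, in contrast, had 19475 and 12930 fragments and a log2 ratio of 0.23 (interval 0.20 to 0.27). Lcat, with 984 and 482 fragments, had a log2 ratio of -0.20 (interval -0.36 to -0.045; adjusted p = 0.0198, exact binomial test).

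GC content moved with the ratio across all genes. Tested genes at 45 to 50% GC had a median log2 ratio of 0.023, those at 55 to 60% of -0.20 and those at 60 to 65% of -0.56. Mean fragment length was not measured but derived from the deposited lengths and effective lengths (lengths corrected for fragment size) of long transcripts. Derived this way, it also differed, at 164.5 bases in replicate 1 and 124.2 in replicate 2. The expressed transcripts of Apoe had 61.0% GC, those of Lrp1 57.9%, those of Clu and Lcat 55.5%, those of Abcg1 52.7%, those of Apod 49.8% and those of Abca1 47.5%. With trends on GC content and length removed, the Apoe ratio became 0.017, that of Lrp1 became -0.40 and was no longer called, and that of Abcg1 became 0.74 and was called. Apod, at -0.55, and Clu, at 0.33, kept their directions and lay further from 0.

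**Figure D4:**
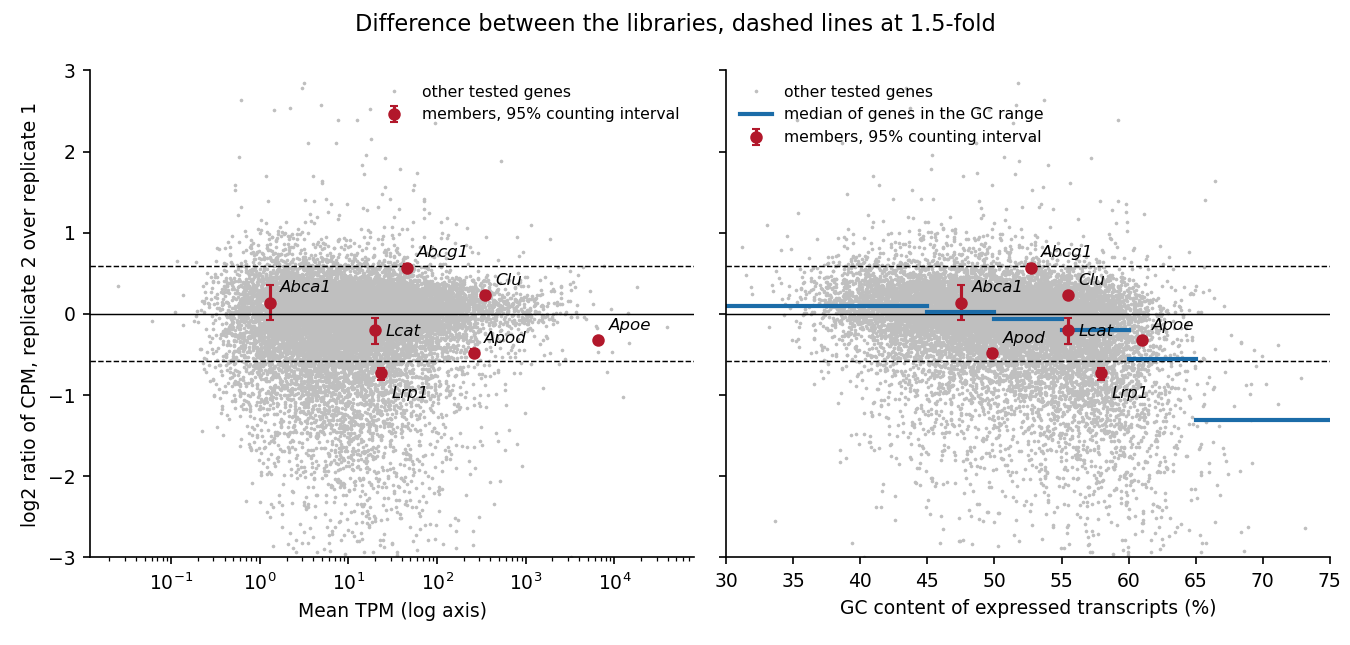
Log2 ratio of CPM, replicate 2 over replicate 1, against mean TPM (left, log axis) and GC content (right) for tested genes in grey and the 7 members in red with 95% counting intervals. Blue lines are medians within GC ranges and dashed lines mark 1.5-fold; Lrp1 is the only member outside them, and 64 genes beyond 3 in either direction are not drawn.

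The second transcript tables, which the authors made from the read files directly, gave every member a lower TPM than the gene tables. The log2 ratio of second to gene table lay between -0.48 and -0.22 over the 7 members and both libraries. The median over all genes was -0.40 in replicate 1 and -0.28 in replicate 2, so the shift was general. Apoe stood at 5181 and 4769 TPM there, Clu at 229 and 311, Apod at 228 and 192, Abcg1 at 25.2 and 45.6, Lrp1 at 23.1 and 13.7 and Lcat at 14.8 and 14.9. Under the rule of a 2-fold difference in the same direction in both libraries, 0 of the 7 members stood apart, against 1.76% of 10102 genes with a mean TPM of at least 5.

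Markers of the cells that make or use these carriers were compared between the libraries in the same way. Over all tested genes, 17.2% were called lower in replicate 2 and 3.22% higher. The 10 astrocyte markers summed to 1814 TPM in replicate 1 and 2168 TPM in replicate 2, of which Aldoc alone gave 1129 and 1397 TPM. Of these markers 0 were called higher and 2 lower, Sox9 at a log2 ratio of -0.78 and Slc4a4 at -0.70, and 4 of the 10 had ratios below 0. The 10 oligodendrocyte markers summed to 3514 and 3802 TPM with 0 called, and the 10 microglia markers to 753 and 821 TPM with 0 called. Of 10 fibroblast and meningeal markers 3 were called lower, and their sum of 7557 and 5597 TPM was mostly Ptgds. Of 10 neuronal markers 3 were called lower (sums of 5307 and 5265 TPM), of 10 endothelial markers 2 were called lower (275 and 316 TPM) and of 10 mural markers 1 was called in each direction (75.7 and 78.3 TPM). The endothelial count depended on the scaling: Slc2a1 was called higher beside 2 lower under total-count scaling, and Cldn5 and Slc2a1 higher beside 2 lower with GC and length trends removed. The mural count became 2 higher and 1 lower under total-count scaling, and 1 higher and 0 lower with those trends removed. In the second tables it was 0 higher and 1 lower. The neuronal count became 2 lower under total-count scaling, in the second tables and with those trends removed. The astrocyte count became 1 lower under total-count scaling. None of these marker genes was at 0 in both libraries. The part of cell composition in the member ratios was not tested.

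The other genes of the pathway were read from lists drawn up by role. Their called counts stand beside 17.2% of all tested genes called lower in replicate 2 and 3.22% called higher. Beside Apoe, Clu and Apod, 5 of 15 other apolipoprotein genes were detected. The highest, Apoo at 118 and 123 TPM, encodes a protein that is mostly mitochondrial, as is its relative Apool at 7.79 and 9.27 TPM. Apoa2, a plasma apolipoprotein, stood at 2.57 and 3.81 TPM. Apoa4, Apoa5 and Apob had 0 fragments in both gene tables. That allows up to 0.0578 CPM in replicate 1 and 0.112 CPM in replicate 2. The second tables gave Apoa4 0.0142 TPM in replicate 2. Of the 15 genes 2 were tested and 0 called.

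Among 17 lipoprotein receptors and their chaperone, 15 were detected and 4 of 16 tested genes were called, all lower in replicate 2, as was Lrp1. Under total-count scaling Vldlr was called higher beside 4 lower, and with GC and length trends removed 3 were called lower and Lrp1 was not called. Lrpap1, the chaperone of Lrp1 and related receptors, was the highest at 158 and 205 TPM, above Lrp1 in both libraries. Sort1, a sorting receptor, stood at 66.5 and 22.3 TPM with a log2 ratio of -1.79. Lrp10 stood at 14.8 and 5.86 TPM with a ratio of -1.49. Trem2, a microglial receptor that binds Apoe, stood at 26.9 and 34.9 TPM.

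Among 13 other lipid ABC transporters, 11 were detected and tested, and 3 were called lower. Abcd3, of peroxisomes, stood at 29.7 and 36.0 TPM and Abca2 at 31.6 and 17.7 TPM, both well above Abca1. Abcg4, a close relative of Abcg1, stood at 22.2 and 13.4 TPM, below Abcg1 in both libraries, with a log2 ratio of -0.71, opposite in sign to that of Abcg1.

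Of 18 genes of lipoprotein remodelling and sterol handling, 13 were detected, and 1 was called higher and 3 lower of 14 tested. Osbpl1a, a sterol binding protein, led at 243 and 250.5 TPM. Pla2g7, a phospholipase that travels with lipoproteins, stood at 176 and 168 TPM. Cyp46a1, which turns cholesterol into the form that leaves the brain, stood at 212 and 99.8 TPM with a log2 ratio of -1.20. Pltp, which moves phospholipid between particles, stood at 103 and 61.4 TPM with a ratio of -0.91. Pltp and Pla2g7 both stood above Lcat in each library.

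All 15 liver X and retinoid X receptor genes and targets were detected. Of these, 6 were called, all lower in replicate 2, against 17.2% of all tested genes. Apoe, Abcg1 and Abca1 belong to this list and were not among the 6. Under total-count scaling 6 were called lower and Abcg1 higher, and with GC and length trends removed 3 were called lower and Abcg1 higher. The corepressor Ncor1 stood at 78.3 and 42.1 TPM and Srebf2, which drives cholesterol synthesis, at 69.8 and 46.5 TPM. Rxrb, a retinoid X receptor, had a log2 ratio of -1.53.

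Of 9 fatty acid binding proteins and similar carriers, 8 were detected, and 1 of 7 tested was called, Fabp7, higher at a ratio of 0.70 but not called once GC and length trends were removed, when 1 gene was called lower. Ptgds, a lipocalin like Apod, stood at 7492 and 5546 TPM, above Apoe in replicate 1 and below it in replicate 2. Dbi stood at 1206 and 1394 TPM and Fabp3 at 299 and 319 TPM.

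The neighbours of Apoe on chromosome 7 did not share its level. Tomm40, next to it, stood at 118 and 133 TPM, Clptm1 at 94.5 and 70.9 TPM and Bcam at 11.9 and 5.10 TPM. Apoc1, in the same apolipoprotein cluster, stood at 1.39 and 4.66 TPM on 15 and 30 fragments. Of 4 tested neighbours 2 were called lower, Clptm1 and Bcam, and 1 under total-count scaling or with GC and length trends removed.

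**Figure D5:**
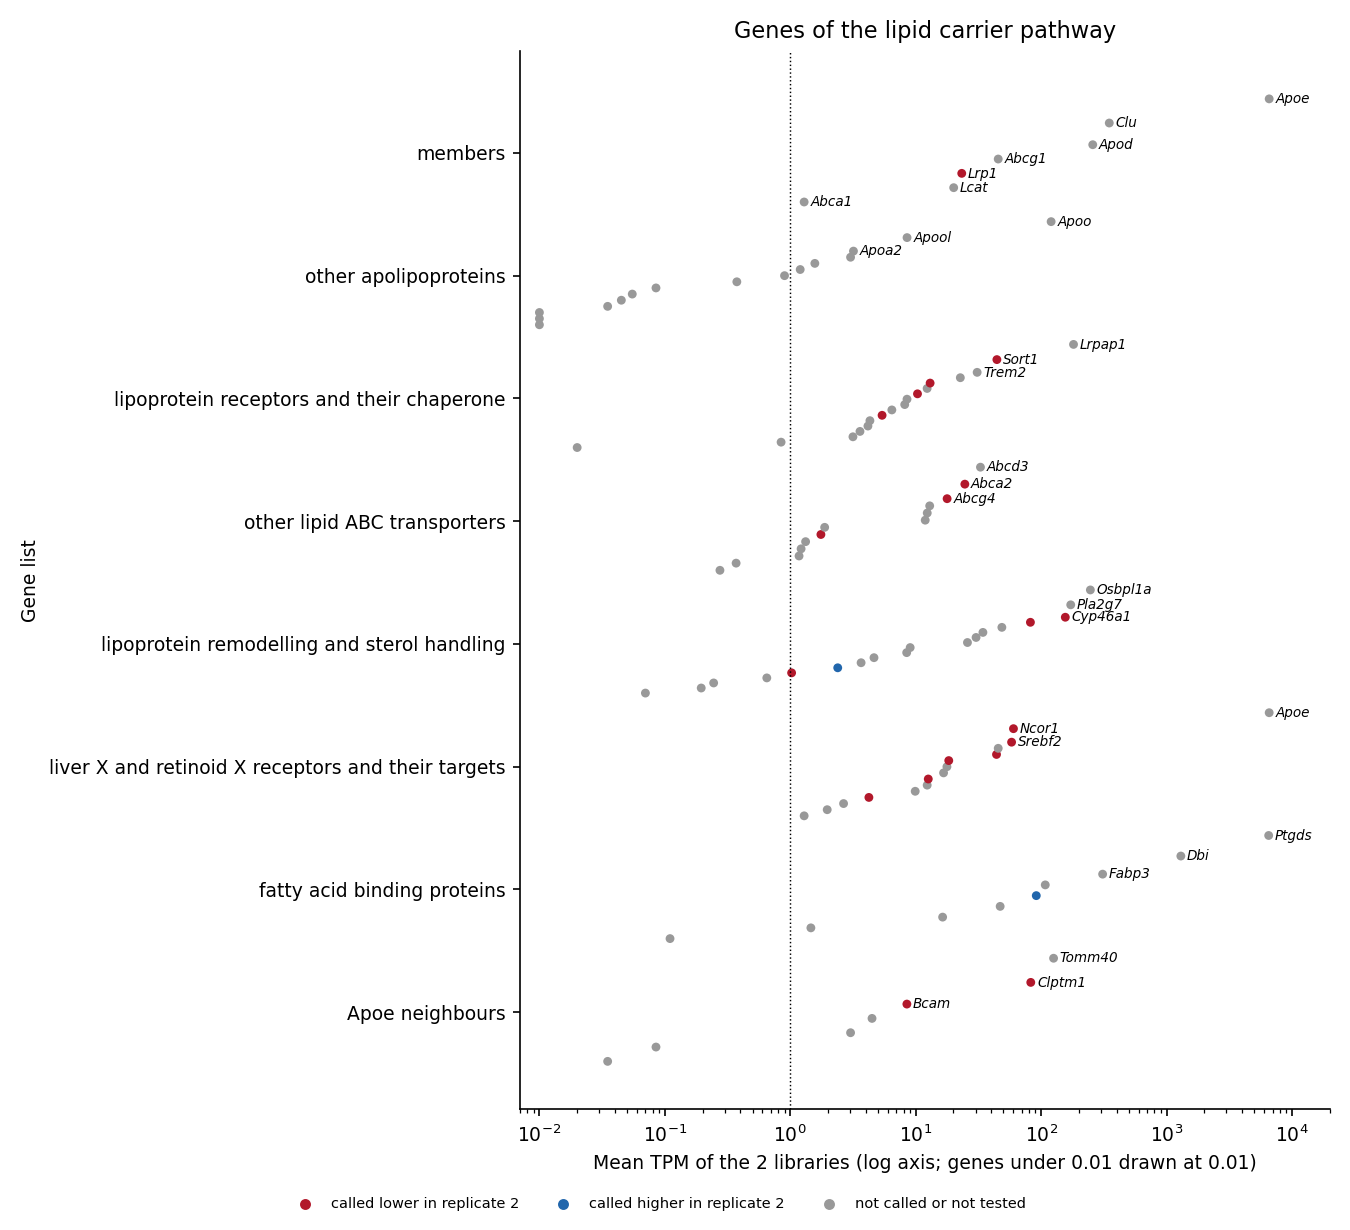
Mean TPM of the 2 libraries (log axis) for the members and the genes of each pathway list, with red for genes called lower in replicate 2, blue for higher and grey for not called or not tested; the dotted line is 1 TPM and height within a list has no meaning. Apoe and Ptgds lie above all others, and of the other apolipoproteins Apoo alone exceeds 10 TPM.

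The protein coding genes nearest to each member in log2(TPM + 0.1) over both libraries were listed as a description of 2 points per gene. Apoe lay nearest to Ppia (6504 and 6263 TPM) and Cox8a (6468 and 5863 TPM), at distances of 0.12 and 0.14. The others had closer neighbours: Sept7 and Stmn2 for Clu, Gng5 and Fxyd7 for Apod, Glt1d1 and Pik3cg for Abca1, Rprm and Grm5 for Abcg1, Smarcc1 and Smndc1 for Lrp1, and Ncbp1 for Lcat. Their distances ran from 0.0095 for Glt1d1 to 0.092 for Fxyd7.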

How the data were processed

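Poly(A)+ RNA-seq libraries of 1 group (replicates 1 and 2) had 3 tables each, on mm10 with GENCODE M21, per the notes deposited with them. From alignments to transcripts the authors made a table of genes and a table of transcripts, with expected counts, TPM, isoform percent and, as a score, the bounds of a TPM interval, per the file headers. The authors made a second table of transcripts, with estimated counts and TPM, from the read files. The sources used here name no aligner, quantifier or strand setting. Rows with numeric names (26248) and spike-ins (97) stayed out of library sizes; the former held 1.73e-05% and 3.35e-05% of fragments.

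Expected counts were rounded. Libraries were scaled by TMM (edgeR 4.0.16) and compared by an exact binomial test (scipy 1.17.1), with a pseudocount of 0.5 CPM in the log2 ratio and none in the intervals. edgeR's quasi-likelihood test was not used, since 1 library stood against 1. The steps were tested on data simulated with counting error alone, which does not cover other spread between libraries or the trend with GC content. For 1 alternative, lowess trends (fraction 0.3) on GC content and length were subtracted. Transcripts with a complete coding sequence contained that of the principal transcript. Intervals and the limit of 3 counts for genes at 0 cover counting error only, since they hold no spread between replicates. As far as the sources used here say, fragments were not counted by molecular identifiers.

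Named genes were the members, the 3 highest of each pathway list with the 2 largest called ratios (mean TPM 5 or more), the 2 highest of each marker list, and the 2 nearest genes of each member. Some of these are not printed. Other genes named beside a count (Sox9, Slc4a4, Slc2a1, Cldn5, Vldlr) were chosen after their values were seen. Apoc1 and the apolipoprotein genes at 0 fragments (Apoa4, Apoa5 and Apob) were also named outside these rules. Members, lists and rules were chosen with earlier results of these data known.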

Additional observations from a re-analysis of the deposited data

How the results depend on the processing

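The count of members at least 1.5-fold apart, 1 (Lrp1), became 2 (Abcg1 and Lrp1) under total-count scaling and 2 (the same members) in the second transcript tables. It stayed at 1 in the other settings, where removal of GC and length trends put Abcg1 in place of Lrp1. The Apoe log2 ratio turned from -0.32 to 0.017 when those trends were removed, and the other 6 members kept their direction in all 8 settings. The cause was not tested. The median member level, 45.5 TPM, ran from 34.5 to 56.5 when either replicate was left out. Over all genes, 2270 to 3499 were called. Sums over complete coding transcripts, added after seeing the data, lowered Lrp1 from 23.3 to 6.61 TPM. Detected pathway genes fell from 71 of 91 to 49 at a limit of 5 TPM. No paired analysis was possible because the labels give 1 group. With 2 libraries of 1 group, levels have no test. Depth limits Abca1 most (470 and 293 fragments).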
